A study of Mus musculus with 44 samples.

Results

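The miR-101 family was followed here through 3 of the 1978 rows of a mature-miRNA count table from mouse hypothalamus, picked by name: mmu-miR-101a-3p, mmu-miR-101b-3p and mmu-miR-101a-5p (mmu for Mus musculus, left out in most of what follows). They were picked with earlier results of these data known, in which the -3p arms were higher in AM132-treated than in AM608-treated mice, so that difference is described below and not tested. The table holds 44 libraries of C57Bl/6J mice in 3 groups. The AM132 group (16 libraries) was made obese by 11 weeks of high fat diet and then given a 16-mer locked nucleic acid oligonucleotide complementary to mature miR-132, at 3.3 mg/kg intravenously on 3 consecutive days. The AM608 group (16 libraries) had the same diet, dose and schedule with a 15-mer against the primate miR-608, for which no complementary mouse sequence is predicted. Both were killed 7 days after treatment. The RCD group (12 libraries) was age-matched and lean after 11 weeks of regular chow, and is not described as injected. Any difference from RCD mice thus mixes diet with injection, which cannot be told apart. The labels number the samples without saying that each is a separate mouse, and p-values measure the spread between these samples.

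A miRNA gene is transcribed into a hairpin, from which Drosha and Dicer cut a short duplex, and usually 1 arm of it is kept by an Argonaute protein. That arm finds mRNAs mainly through its seed, bases 2 to 8, and lowers their translation and stability. The miR-101 family is conserved across vertebrates and is best known for acting on Ezh2, the histone H3K27 methyltransferase of Polycomb repressive complex 2, and on App, the amyloid precursor protein of neurons. The small RNA counts say nothing of either mRNA.

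The mature arms are shown because their near-identity sets what a count can tell apart. They are the RefSeq sequences of GRCm38.p6, 5′ to 3′, with the seed in capitals.
miR-101a-3p: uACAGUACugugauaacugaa
miR-101b-3p: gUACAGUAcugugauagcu
miR-101a-5p: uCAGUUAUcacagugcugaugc
miR-101c: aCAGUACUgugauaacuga
miR-144-3p: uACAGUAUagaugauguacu
Within its hairpin, the stretch of Mir101b that lines up with miR-101a-3p matched it at 20 of 21 bases, the difference being A16G (base 16 of miR-101a-3p, counted from its 5′ end). The annotated miR-101b-3p begins 1 base earlier, so its seed is shifted by that base. The base before miR-101a-3p in its own hairpin is the same as base 1 of miR-101b-3p, so the start alone does not separate reads of the 2 genes. A read that ends before base 16 could not be assigned to one of them, and how the authors placed such reads is not given in the sources used here. miR-144-3p, an erythroid miRNA, shares the first 7 bases of miR-101a-3p. None of the 1679 mature names in the RefSeq table has the same bases 2 to 8 as one of the 3 members. The row miR-101c, which was not among the members, is an unbroken copy of 19 bases of miR-101a-3p from base 2 on, and its reads cannot be told from trimmed miR-101a-3p.

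The hairpins lie at separate places in GRCm38, and both mature arms of each are in capitals here to show which arm the counts come from.
Mir101a: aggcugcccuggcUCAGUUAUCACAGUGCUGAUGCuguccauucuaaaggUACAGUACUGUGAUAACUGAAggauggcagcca
Mir101b: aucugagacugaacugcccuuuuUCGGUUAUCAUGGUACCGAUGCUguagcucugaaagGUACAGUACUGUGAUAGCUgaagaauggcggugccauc
Mir101a is at chr4:101346945-101347027 on the minus strand, inside an exon of the long noncoding RNA gene E130102H24Rik on the same strand. Mir101b is at chr19:29135279-29135375 on the plus strand and lies within an intron of Rcl1, a protein-coding gene transcribed in the same direction. The -3p arms are at chr4:101346957-101346977 and chr19:29135338-29135356. The -5p arms of the 2 hairpins matched at 17 of 22 bases compared from their starts.

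The libraries held 3020192 to 5997234 miRNA counts, with a median of 3996734, and levels are given as CPM, the count scaled to library size, here with TMM factors. The labels give 4 batches without saying what a batch is: batch 1 and batch 3 each hold 4 AM132 and 4 AM608 libraries, batch 4 holds 8 RCD libraries, and batch 2 holds 8 AM132, 8 AM608 and 4 RCD libraries. All 5 neuronal marker miRNAs, which brain tissue should hold, were detected in every group, and their summed level was 252941 to 377645 CPM in batches 1, 3 and 4 and 103239 to 145462 CPM in batch 2. TMM factors were 0.824 to 1.00 in batches 1, 3 and 4 and 0.976 to 1.24 in batch 2. The libraries AM132 5, AM132 6 and AM608 5, all of batch 2, carried 1807, 20098 and 20384 CPM of pituitary and neuroendocrine marker miRNAs, against at most 702 CPM in the other libraries. The targeted miRNA, miR-132-3p, averaged 764 ± 408 CPM in AM132 and 976 ± 336 CPM in AM608 libraries (SD, n = 16 each), a log2 fold change of -0.46 ± 0.16 (SE), and edgeR's quasi-likelihood test gave it an adjusted p of 0.593.

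The family was represented almost wholly by its -3p arms. mmu-miR-101a-3p, the guide arm of Mir101a, held 620542 of all counts (0.341%), averaged 3410 ± 320 CPM (SD, n = 44) and was number 46 of the 1978 rows by mean level. mmu-miR-101b-3p, the arm from Mir101b, held 258190 counts (0.142%), averaged 1414 ± 149 CPM and was number 77. Between the lowest and the highest library miR-101a-3p spanned 2744 to 4463 CPM and miR-101b-3p 1111 to 1704 CPM. How evenly the library kit captures miRNAs of different sequence was not tested, and levels of the 2 arms are compared below only as a ratio that is followed across libraries.

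mmu-miR-101a-5p, the opposite arm of the Mir101a hairpin, was close to the limit of detection. It had 181 counts over all libraries (95% Poisson interval 156 to 209), between 0 and 13 in a library, and 0 in AM132 4 and AM132 14. It made up 0.0292% of the reads of both arms of Mir101a (Wilson 95% interval 0.0252 to 0.0337%). The share was 0.0248% in AM132 (0.0192 to 0.0322%), 0.0305% in AM608 (0.0238 to 0.0391%) and 0.0330% in RCD libraries (0.0257 to 0.0423%), and the 3 intervals overlap. These intervals cover counting error only. The row did not pass the filter on low counts in any comparison, so 2 of the 3 members were tested. Of the rows outside the member list, miR-101b-5p had 3 counts in all and was at 0 in 41 libraries, and miR-101c had 1155 counts, or 6.35 CPM.

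**Figure D1:**
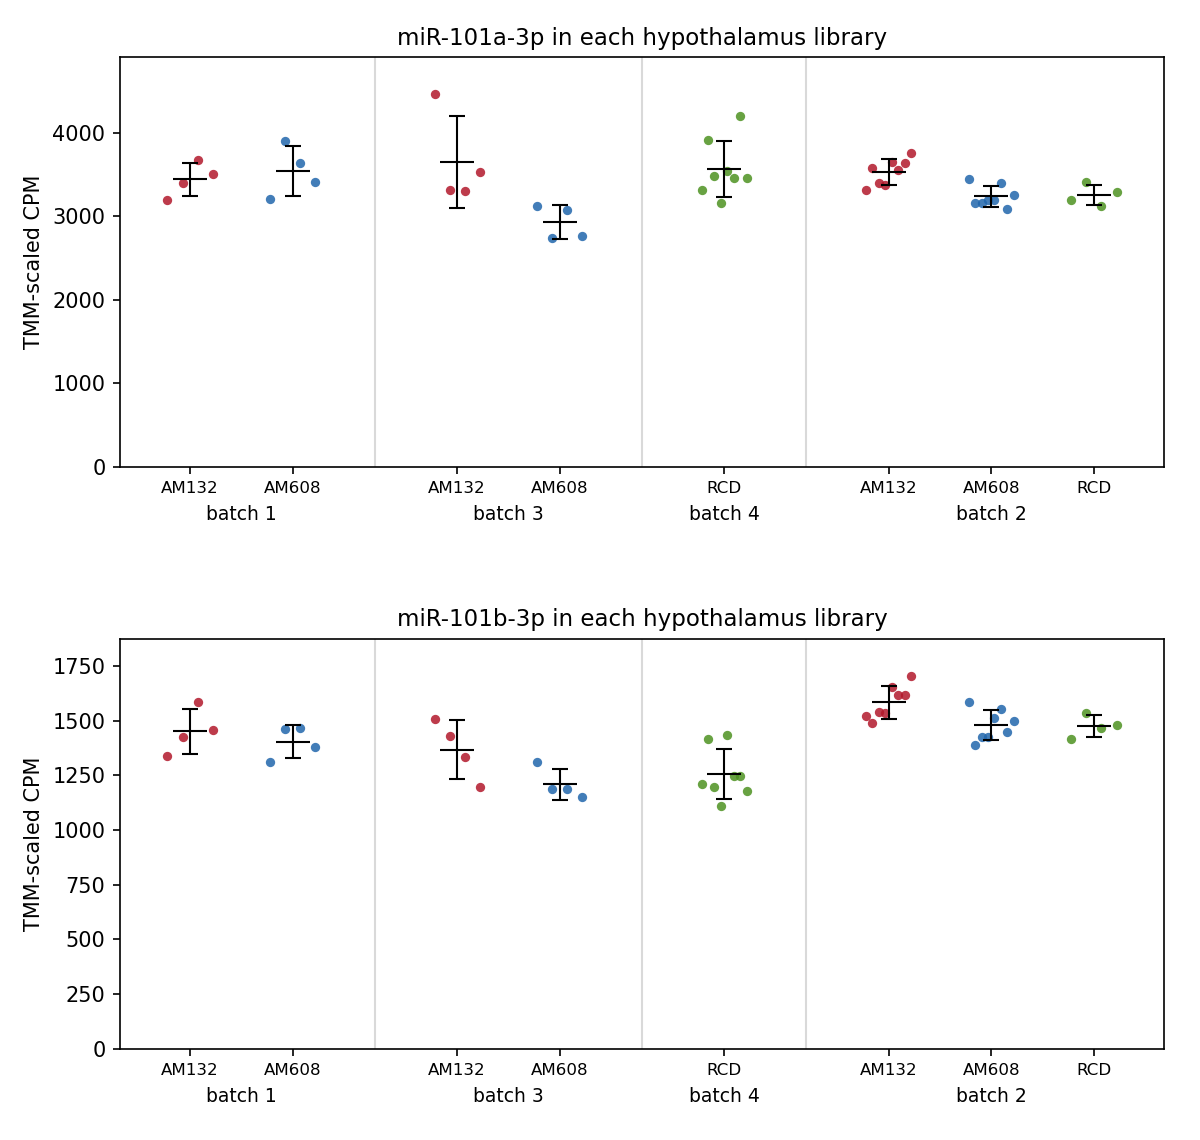
TMM-scaled CPM (vertical axes, from 0) of miR-101a-3p (top) and miR-101b-3p (bottom) in each library (points), by group and batch, with mean and SD (bars). Libraries of miR-101a-3p lie between 2744 and 4463 CPM in every group and batch, and those of miR-101b-3p between 1111 and 1704 CPM, with the batch 2 libraries all at or above 1389 CPM.

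The first comparison, AM132 against AM608, asks what the anti-miR-132 oligonucleotide did in the obese hypothalamus. Over batches 1 to 3, miR-101a-3p averaged 3542 ± 292 CPM in AM132 and 3237 ± 290 CPM in AM608 libraries (SD, n = 16 each), a log2 fold change of 0.13 ± 0.04 (SE) with batch as a term. miR-101b-3p averaged 1497 ± 132.03 CPM in AM132 and 1393 ± 131 CPM in AM608 libraries, a log2 fold change of 0.11 ± 0.03. Of the AM132 libraries, 13 of 16 lay above the AM608 mean of their batch for miR-101a-3p and 14 of 16 for miR-101b-3p, and the ranges of the groups overlap for both arms. In whole tissue, fewer cells of a type and less of a miRNA per cell cannot be told apart. These values brought the family forward and nothing is read from them here. Across the table, edgeR called 2 of 559 miRNAs (0.358%), namely miR-34c-3p higher and let-7b-3p lower (0.179% in each direction), named after their values were seen and no members of the family.

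The values behind this difference are given next for each batch. In batch 1, miR-101a-3p stood at 3202, 3403, 3671 and 3508 CPM in AM132 libraries, against 3207, 3909, 3642 and 3414 CPM in AM608 libraries. The ranges overlap, and the mean difference was -0.04 on the log2 CPM scale, with 1 of 4 AM132 libraries above the AM608 mean. In batch 3 it stood at 4463, 3322, 3301 and 3533 CPM in AM132 libraries, against 3130, 2744, 3077 and 2763 CPM in AM608 libraries. Here every AM132 library was above every AM608 library, by 0.31 on average, and AM132 13 stood furthest out. The share of all miRNAs that separate in this way was not counted, and in batch 3 alone edgeR called 0 of 532 miRNAs.

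In batch 2, miR-101a-3p had a lowest, median and highest value of 3319, 3565 and 3764 CPM in AM132 libraries, against 3085, 3201 and 3445 CPM in AM608 libraries. All 8 AM132 libraries were above the AM608 mean, 5 of them were above every AM608 library, and the difference was 0.13. For miR-101b-3p the difference was 0.05 in batch 1, where 3 of 4 AM132 libraries were above the AM608 mean. It was 0.17 in batch 3, with 3 of 4 above, and 0.10 in batch 2, with 8 of 8 above. Whether the difference itself differs between batches was not tested.

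For miR-101b-3p, batch 1 gave 1339, 1425, 1586 and 1458 CPM in AM132 libraries, against 1310, 1462, 1465 and 1382 CPM in AM608 libraries. Batch 3 gave 1509, 1432, 1333 and 1197 CPM in AM132 libraries, against 1312, 1190, 1186 and 1151 CPM in AM608 libraries. Batch 2 gave a lowest, median and highest value of 1490, 1578 and 1704 CPM in AM132 libraries, against 1389, 1474 and 1584 CPM in AM608 libraries. The ranges of the groups overlap in each batch. The pituitary and neuroendocrine markers were high only in AM132 5, AM132 6 and AM608 5 of batch 2. Without these libraries the fold changes over all batches remained within 1.5 times of those above.

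Batch 2 is the one batch with all 3 groups, and sets both obese groups against lean chow-fed mice. miR-101a-3p stood at 3199, 3410, 3127 and 3295 CPM in the RCD libraries of that batch, and miR-101b-3p at 1417, 1538, 1468 and 1483 CPM. The AM608 libraries given above spread around these values, and their log2 fold change over RCD was 0.03 ± 0.05 (SE) for miR-101a-3p and 0.05 ± 0.04 for miR-101b-3p, with adjusted p = 0.914 and 0.901 in edgeR's quasi-likelihood test. The AM132 libraries were higher than RCD by 0.15 ± 0.05 for miR-101a-3p and 0.14 ± 0.04 for miR-101b-3p on the log2 scale, with an adjusted p of 0.488 for each, so neither passed the threshold of 0.05. With the total count as the sole scaling, these values came to -0.01 and -0.00 for AM608 and 0.05 and 0.04 for AM132. Without AM132 5, AM132 6 and AM608 5 they were 0.01 and 0.02 for AM608 and 0.15 and 0.15 for AM132.

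The interval of 2 SE on either side of the AM608 fold change ran from -0.06 to 0.13 for miR-101a-3p and from -0.04 to 0.13 for miR-101b-3p. Across all 599 miRNAs edgeR called 0 in either comparison (0%), with 30 at an unadjusted p under 0.05 for AM608 and 59 for AM132. DESeq2 also called 0 in both. The AM132 and AM608 libraries are those of the comparison that brought the family forward, and both comparisons share the RCD libraries, so the values stand side by side and are not independent of it.

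**Figure D2:**
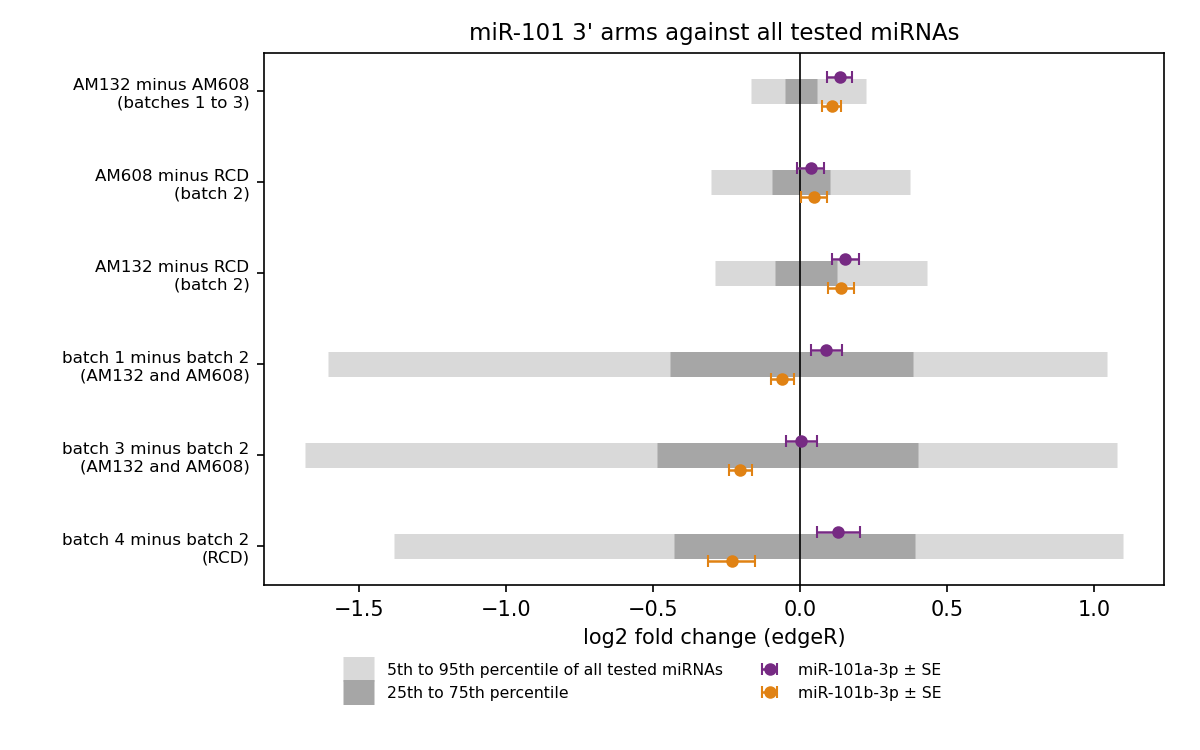
Log2 fold change (horizontal axis) of miR-101a-3p and miR-101b-3p with its SE in 6 comparisons (rows), over grey bars for the 5th to 95th and 25th to 75th percentiles of all tested miRNAs. Between batches miR-101b-3p lies left of 0 in all 3 rows, and both arms lie inside the 25th to 75th percentile bar. For AM132 against AM608 and AM132 against RCD both arms lie to the right of that bar. For AM608 against RCD both lie inside it.

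Batches were compared next within the same groups of mice, which the choice of the family did not use. Between RCD libraries, miR-101b-3p fell to 1256 ± 114 CPM in batch 4 (SD, n = 8), against 1477 ± 50.0 CPM in batch 2 (n = 4). Its log2 fold change was -0.23 ± 0.08 (SE), and edgeR's quasi-likelihood test gave it an adjusted p of 0.0212. Batch 4 libraries ran from 1111 through a median of 1229 to 1434 CPM, and their upper end overlaps the lower end of batch 2. The call did not last when any 1 of RCD 9, RCD 10, RCD 11 or RCD 12 was left out (adjusted p 0.0529 to 0.0603, log2 fold change -0.23 to -0.22), nor with RLE scaling (-0.20, adjusted p 0.0532) or DESeq2 (-0.20, adjusted p 0.0612).

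miR-101a-3p in the same RCD libraries averaged 3566 ± 335 CPM in batch 4 and 3258 ± 123 CPM in batch 2, a log2 fold change of 0.13 ± 0.07 with an adjusted p of 0.151. Batch 4 libraries ran from 3155 through a median of 3473 to 4199 CPM, the last in RCD 7, and the batches overlap. With the total count as the sole scaling the value for miR-101a-3p turned to -0.21 (adjusted p 0.0264) and that for miR-101b-3p was -0.57, while the median of all miRNAs moved to -0.35. Between these batches 331 of 598 miRNAs (55.4%) passed the test, 26.9% higher and 28.4% lower. Of the 331, 161 were higher, against 61 of 341 without TMM scaling. The median size of a log2 fold change was 0.40 over all miRNAs, so that of miR-101b-3p was below the middle of the table.

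In AM132 and AM608 mice, miR-101b-3p fell to 1289 ± 130 CPM in batch 3 (n = 8), against 1532 ± 87.8 CPM in batch 2 (n = 16), a log2 fold change of -0.20 ± 0.04 (SE) with an adjusted p of 4.50e-05 in the same test. It averaged 1428 ± 86.4 CPM in batch 1, which was -0.06 ± 0.04 against batch 2 with an adjusted p of 0.173. miR-101a-3p averaged 3292 ± 546 CPM in batch 3, 3495 ± 242 CPM in batch 1 and 3386 ± 204 CPM in batch 2. Its log2 fold change was 0.00 ± 0.05 for batch 3 (adjusted p 0.974) and 0.09 ± 0.05 for batch 1 (adjusted p 0.140) against batch 2. The miR-101b-3p ranges overlap, from 1151 to 1509 CPM in batch 3 and from 1389 to 1704 CPM in batch 2.

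The direction of miR-101a-3p depended on the scaling here too: with the total count alone it was -0.25 in batch 1 and -0.40 in batch 3 (adjusted p 0.000500 and 6.20e-07), where the medians of all miRNAs were -0.32 and -0.42. miR-101b-3p was then -0.40 in batch 1 (adjusted p 4.55e-07) and -0.60 in batch 3. Of 559 miRNAs, 378 (67.6%) passed between batches 1 and 2 and 384 (68.7%) between batches 3 and 2, so a call of miR-101b-3p is no exception among them. Higher calls made up 33.5% and 33.8% of the miRNAs tested and lower calls 34.2% and 34.9%. In numbers, 187 and 189 were higher with TMM scaling, against 100 of 400 and 78 of 412 with the total count alone. Neuronal markers were lower and oligodendrocyte and choroid plexus markers mostly higher in batch 2, and their part in these values was not tested.

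A ratio of 2 rows within a library needs no scaling, and it was lower in every other batch than in batch 2. In batch 2 there were 31.2% ± 0.584 reads of miR-101b-3p among those of both -3p arms (SD, n = 20). It was lower elsewhere: batch 1 had 29.03% ± 0.870, batch 3 had 28.3% ± 2.02 and batch 4 had 26.1% ± 1.65 (n = 8 each). On the log2 scale the ratio of miR-101b-3p to miR-101a-3p in batch 2 was -1.16 ± 0.04 in AM132 (n = 8), -1.13 ± 0.04 in AM608 (n = 8) and -1.14 ± 0.04 in RCD libraries (n = 4). Counting error alone gives an SE of 0.0172 to 0.0304 per library.

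Within batch 2 no difference between the groups in this ratio passed the test. AM608 exceeded RCD by 0.01 (exact permutation test, 2-sided, p = 0.620, adjusted p = 0.640 over 10 ratio tests) and AM132 differed from RCD by -0.02 (exact p = 0.594, adjusted p = 0.640). The smallest p that 8 against 4 libraries allow is 0.00202.

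In RCD mice the ratio was -1.51 ± 0.12 in batch 4 (n = 8) and -1.14 ± 0.04 in batch 2 (n = 4), a difference of -0.36, or 0.777-fold (exact permutation p = 0.00202, the smallest possible, adjusted p = 0.00673). The values in batch 4 were -1.45, -1.47, -1.54, -1.51, -1.30, -1.47, -1.75 and -1.55 for RCD 1 to RCD 8, against -1.17, -1.15, -1.09 and -1.15 in batch 2 for RCD 9 to RCD 12. All 8 libraries of batch 4 lay below all 4 of batch 2, and RCD 7 was the lowest of all. Between these batches 55.4% of 598 miRNAs were called and the median size of a log2 fold change was 0.40. Both figures are for single rows and not for ratios of 2 rows. How many other pairs of rows separate as fully was not counted, so whether this difference is unusual for a ratio was not tested. The summed neuronal markers differed in the same libraries, at 281478 to 352469 CPM in batch 4 and 109590 to 129467 CPM in RCD libraries of batch 2, and their part in the ratio was not tested.

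In AM132 and AM608 mice the ratio was also lower outside batch 2. It averaged -1.29 ± 0.06 in batch 1 and -1.34 ± 0.15 in batch 3 (n = 8 each), against -1.14 ± 0.04 in batch 2 (n = 16). The differences were -0.15, or 0.904-fold, and -0.20, or 0.871-fold (exact permutation within each group, p = 1.63e-05 and adjusted p = 8.16e-05 for both). All 8 libraries of batch 1 and all 8 of batch 3 lay below the mean of batch 2, and 5 of 8 in each lay below every library of batch 2. Against batch 2, 67.6% of miRNAs were called in batch 1 and 68.7% in batch 3, and ratios of other rows were not computed. The lowest library of batch 2 was AM132 6, at -1.26, which is 1 of the 3 libraries rich in pituitary markers, and the next was AM608 6 at -1.19.

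**Figure D3:**
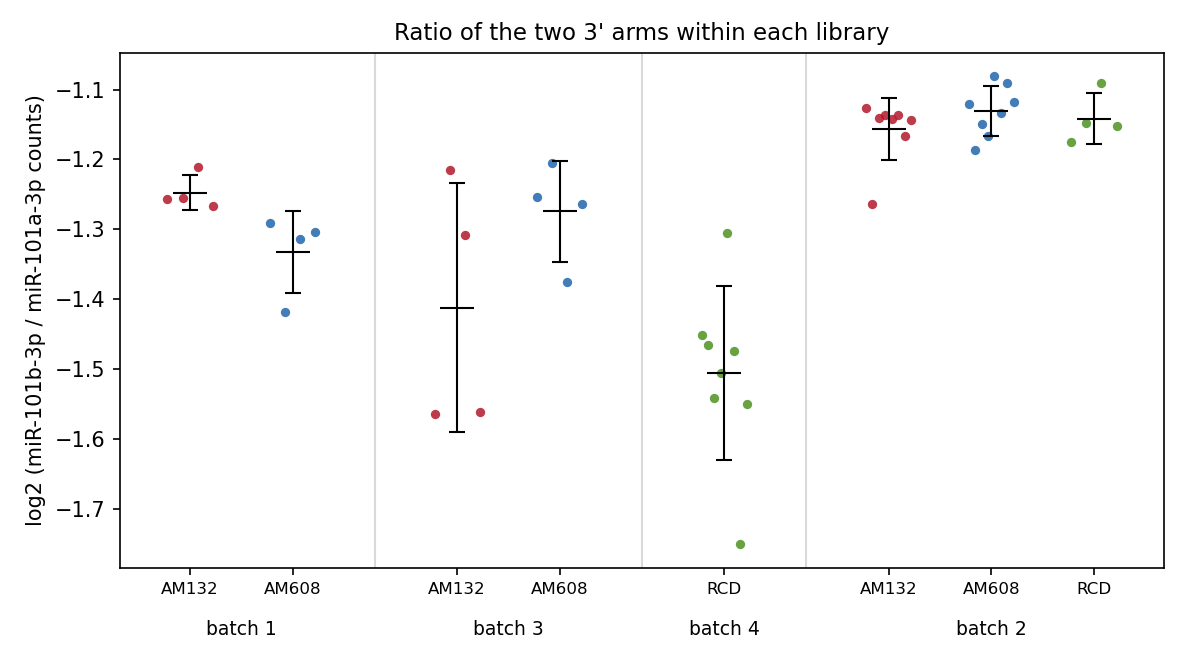
Log2 ratio of miR-101b-3p to miR-101a-3p counts (vertical axis) in each library (points), by group and batch, with mean and SD (bars). The 3 groups of batch 2 average -1.16, -1.13 and -1.14, and the RCD libraries of batch 4 lie between -1.75 and -1.30, all below the RCD libraries of batch 2.

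The difference in this ratio between AM132 and AM608 libraries came to 0.08 for batch 1, -0.14 for batch 3 and -0.03 for batch 2, and is given as values, since the same libraries chose the family. AM132 libraries were at -1.26, -1.26, -1.21 and -1.27 in batch 1, against -1.29, -1.42, -1.31 and -1.30 in AM608 libraries. The groups did not overlap there, and how many ratios of other rows separate in this way was not counted. In batch 3 they were at -1.56, -1.21, -1.31 and -1.56, against -1.25, -1.20, -1.38 and -1.26 in AM608 libraries, and the groups overlapped. AM132 13 and AM132 16 are the low libraries there. AM132 13 had the highest miR-101a-3p of the batch, at 4463 CPM. AM132 16 had the lowest miR-101b-3p among AM132 libraries of the batch (1197 CPM), and its miR-101a-3p (3533 CPM) was above every AM608 library of the batch.

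The log2 ratio of the arms of Mir101a, miR-101a-3p over miR-101a-5p, passed in none of the 5 comparisons (exact permutation p 0.0828 to 0.640, adjusted 0.207 to 0.640). The -5p arm had 0 to 13 reads in a library, which limits the precision of this ratio. The SD of this ratio was 0.83 among batch 2 AM132 and AM608 libraries, against 0.04 for the ratio of the -3p arms.

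Over all libraries the -3p arms varied together within groups and batches, and within single batches Pearson's r passed the test in batches 1 and 2. After the mean of each group and batch was subtracted from log2 CPM, Pearson's r between them was 0.643 and Spearman's rho 0.685 (n = 44, permutation p 0.000240 and 2.00e-05, adjusted p 0.000600 for r over 5 relations), and r was 0.683 without the 2 libraries furthest out. Within batch 1, r was 0.904 (n = 8, permutation p = 0.00734, adjusted p = 0.0122), and within batch 2 it was 0.794 (n = 20, permutation p = 0.000140, adjusted p = 0.000600). In batch 3 it was 0.561 (n = 8, permutation p = 0.273, adjusted p = 0.273) and -0.30 without the 2 furthest libraries, so there it rested on them. In batch 4 it was 0.536 (n = 8, permutation p = 0.152, adjusted p = 0.191), and 0.723 without the 2 furthest libraries. Spearman's rho in batch 4 was 0.786 (permutation p = 0.0276, not adjusted). The rows share libraries, scaling factors and nearly all of their sequence, and reads assigned to either of them were not separated here.

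**Figure D4:**
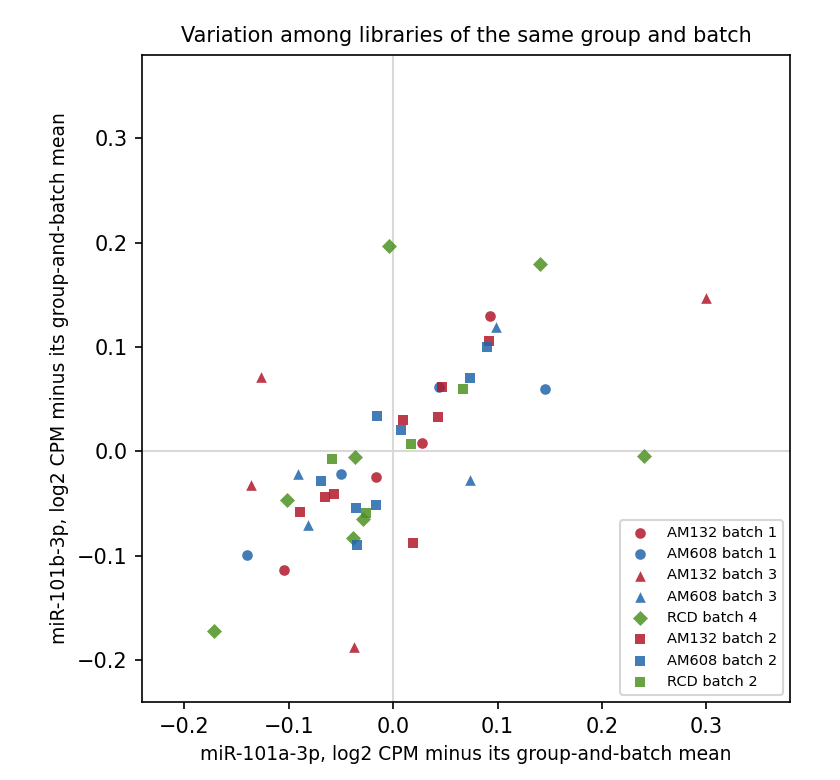
Deviation of miR-101a-3p (horizontal axis) and miR-101b-3p (vertical axis) from the mean of their group and batch, in log2 CPM, one point per library. Points of batches 1 and 2 rise together (r 0.904 and 0.794), and points of batches 3 and 4 scatter more widely (r 0.561 and 0.536). Spearman's rho was 0.429 in batch 3 and 0.786 in batch 4.

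The miRNAs most like each arm were sought among the 407 with a mean of at least 10 CPM, over the same deviations of 44 libraries. For miR-101a-3p they were let-7g-5p (r 0.652), miR-101b-3p (0.643), miR-320-3p (0.595), miR-30d-5p (0.511) and miR-30a-5p (0.511). For miR-101b-3p they were miR-101a-3p (0.643), miR-448-3p (0.614), miR-598-3p (0.578), miR-204-5p (0.567) and miR-140-3p (0.551). The median r over all miRNAs compared was 0.03 for miR-101a-3p and -0.00 for miR-101b-3p. These are descriptions over libraries that share their scaling.

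Other miRNAs reported to act on the same mRNAs did not show calls between treatments. Of 8 miRNAs reported to act on Ezh2, all were tested, and 0 passed in AM132 against AM608, AM608 against RCD or AM132 against RCD, where 0.358%, 0% and 0% of all miRNAs did. Their median log2 fold changes in these comparisons were -0.01, 0.04 and 0.06, against 0.00, 0.00 and 0.01 over all miRNAs. In AM132 against AM608 the 2 with the smallest p were miR-138-5p (-0.10 ± 0.08, SE) and miR-26b-5p (-0.06 ± 0.06), with adjusted p = 0.955 for both in edgeR's quasi-likelihood test.

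Between batches 5 of the 8 rose and 1 fell in each of the 3 comparisons, also with RLE scaling, with medians of 0.46 (batch 4 over batch 2), 0.46 (batch 1 over batch 2) and 0.49 (batch 3 over batch 2). The risers were miR-138-5p, miR-124-3p, miR-26a-5p, let-7a-5p and let-7c-5p, of which miR-124-3p and miR-138-5p are also neuronal markers here. miR-217-5p, abundant in pancreas, was the one that fell, with log2 fold changes of -5.72 (batch 4 over batch 2), -5.97 (batch 1 over batch 2) and -6.27 (batch 3 over batch 2). With the total count as the sole scaling, 3 of the 8 were higher and 3 lower in batch 4, and 4 were higher and 3 lower in batches 1 and 3, and let-7c-5p was called in none of the 3. Of 7 miRNAs reported to act on App, 6 were tested, and 0 passed in the 3 comparisons of treatments. Of either list, 0 had an unadjusted p under 0.05 in those comparisons in edgeR. Between batches, batch 4 over batch 2 had 1 higher and 1 lower, batch 1 had 4 higher and 1 lower, and batch 3 had 3 higher and 1 lower, led by miR-16-5p (1.097, 0.83 and 0.97 in that order) and with miR-384-5p as the lower one (-0.45, -0.38 and -0.35). With RLE scaling batch 4 had 3 App list members higher (miR-16-5p, miR-106b-5p and miR-153-3p) and 1 lower, and the counts for batches 1 and 3 did not move. With the total count alone miR-16-5p was the sole one higher in each of these comparisons, with 1 lower in batch 4 and 2 lower (miR-153-3p and miR-384-5p) in batches 1 and 3. These shares stand against the 55.4%, 67.6% and 68.7% of all miRNAs called between the same batches.

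miR-144-3p, the erythroid miRNA with a near-identical start, averaged 112 ± 40.8 CPM in AM132 and 120 ± 93.6 CPM in AM608 libraries and was called in none of the 6 comparisons.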

How the data were processed

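Small RNA libraries were made from total hypothalamus RNA with the NEBNext kit and read on a NextSeq 500, per the labels. The authors deposited raw counts per mature miRNA and library, and FastQC is named in the submitters' processing notes. Which aligner, genome build or miRNA release they used is not given in the sources used here. All 44 columns were matched to samples by their titles, and 0 were left over. No library pair agreed within sampling noise (lowest chi-square per degree of freedom 5.02).

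The counts went into edgeR 4.0.16 (R 4.3.3), with filterByExpr (minimum count 10, total 15), TMM, quasi-likelihood F tests and Benjamini-Hochberg adjustment over all miRNAs tested, with calls at 0.05. Each SE was taken from the fold change and its F statistic (size of the change over the root of F). AM132 against AM608 used batches 1 to 3 with batch as a term, and the RCD comparisons used batch 2. Levels use TMM over 44 libraries and log2 values a prior count of 2. Ratios add 0.5 to each count and were tested by exact permutation, within AM132 and AM608 where both enter. Correlations used 100000 permutations within group and batch. DESeq2 1.42.0 served as an alternative. The scripts were tested on simulated data. Hairpins were placed with GENCODE, and sequences come from RefSeq. A second deposited table, of tRNA fragments, was not used.

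The members, the lists for Ezh2 and App, the marker lists and the tests were chosen with earlier results of these data known. The miRNAs to be named were the members, the other family rows, the 5 most like each -3p arm, miR-144-3p, miR-132-3p and the list members of smallest p. Also named, after their values were seen, were the called miRNAs of AM132 against AM608, those least like each -3p arm and further list members called between batches.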

Additional observations from a re-analysis of the deposited data

Results flagged for a closer look

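Of 24 sets of values (group, batch and measure) with 4 to 10 libraries, 1 held a library far from the others, and chance flags about 1 set in 20. Among the 8 AM132 libraries of batch 2, AM132 6 had a log2 ratio of miR-101b-3p to miR-101a-3p of -1.26, and the other 7 lay between -1.17 and -1.13. The same library carried 20098 CPM of pituitary and neuroendocrine markers and 3136 CPM of muscle markers, the highest in its group and batch for both, and their part in its ratio was not tested.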

How the results depend on the processing

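Of 192 values recomputed under another setting, for 29 results, 161 counted as unchanged. For tested fold changes, ratios and the correlation, this means the same direction and the same side of the threshold. For numbers of called miRNAs it means a number within 1.5 times of the main one. For the arms in AM132 against AM608 it means a shift below the mean SD within group and batch. The total count as the sole scaling was planned for RCD batch 4 over batch 2. For the other comparisons it was chosen after seeing the data. Under this scaling miR-101a-3p turned to -0.25 in batch 1 over batch 2, -0.40 in batch 3 over batch 2 and -0.21 in RCD batch 4 over batch 2. In AM608 over RCD, miR-101a-3p turned to -0.0115 and miR-101b-3p to -0.000773. miR-101b-3p in batch 1 over batch 2 then passed the test at -0.40. With RLE scaling, DESeq2 and no filter, miR-101a-3p in batch 3 over batch 2 was -0.0170, -0.0169 and -0.0325, and with no filter it was -0.00238 in AM608 over RCD. miR-101b-3p in RCD batch 4 over batch 2 lost its call with RLE scaling and DESeq2 (-0.20 each) and with each RCD library of batch 2 left out (-0.23 to -0.22). Without 1 of those RCD libraries at a time, miR-101a-3p in AM608 over RCD ranged from -0.00460 to 0.0405, the log2 ratio of miR-101b-3p to miR-101a-3p from -0.000177 to 0.0279 in AM608 over RCD and -0.0264 to 0.00166 in AM132 over RCD, and that of miR-101a-3p to miR-101a-5p from -0.678 to 0.0430 in AM608 over RCD and -0.526 to 0.194 in AM132 over RCD.

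The called miRNAs of AM132 against AM608 numbered 1 with no filter, 1 without AM132 5, AM132 6 and AM608 5, 0 with no batch term, 0 in batch 1 alone, 1 in batch 2 alone and 0 in batch 3 alone, and miR-101a-3p was -0.000697 in batch 1 alone and 0.317 in batch 3 alone. In AM132 against RCD 1 miRNA was called without those 3 libraries.

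Libraries with the same number in AM132 and AM608 were not taken as pairs, and the labels do not say whether they are. Of 16 such pairs 11 had r above 0.1, r ran from -0.36 to 0.56, and 6 AM132 libraries correlated best with their own number. What chance would give was not computed, so these values do not decide whether the libraries are paired. With the replicate number as a block in place of batch, miR-101a-3p was 0.13 and miR-101b-3p 0.11 in AM132 over AM608, with 2 miRNAs called. With a replicate block over numbers 9 to 12, they were 0.01 and 0.05 in AM608 over RCD (0 called) and 0.18 and 0.18 in AM132 over RCD (1 called). Depth limits miR-101a-5p, with at most 13 reads in a library.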

Other observations

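The miRNAs least like miR-101a-3p in their deviations from the mean of group and batch, over the same 407 miRNAs and 44 libraries, were miR-342-5p (r -0.62), miR-132-5p (-0.54) and miR-505-5p (-0.51). miR-132-5p is the opposite arm of the targeted miR-132-3p. Those least like miR-101b-3p were miR-676-3p (-0.61), miR-31-5p (-0.57) and miR-1981-3p (-0.56). They were named after their values were seen, share libraries and scaling factors with the family, and are given as values.

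The reads assigned to miR-101c, which copies bases of miR-101a-3p, were set against those assigned to miR-101a-3p. Over the 44 libraries there were 0.992 to 3.38 reads of miR-101c per 1000 of miR-101a-3p, from 14 to 53 reads of miR-101c in a library. There were 1.86 ± 0.499 reads of miR-101c per 1000 of miR-101a-3p in AM132 libraries (SD, n = 16), 2.01 ± 0.475 in AM608 (n = 16) and 1.66 ± 0.511 in RCD libraries (n = 12), and the ranges overlap. By batch the mean was 1.75 ± 0.352 in batch 1, 2.13 ± 0.799 in batch 3, 1.49 ± 0.394 in batch 4 (n = 8 each) and 1.95 ± 0.361 in batch 2 (n = 20), and no difference was tested.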
